A study of Mus musculus with 797 samples.

Results

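The 9 genes described here, Drd1, Drd2, Adora2a, Ppp1r1b, Rgs9, Adcy5, Gng7, Rarb and Meis2, are known for dopamine signalling in the spiny projection neurons of the striatum, and were chosen by name from the 32285 gene rows of the count table. In 781 sorted mouse nuclei, in which defining markers of spiny projection neurons were at or near 0, 8 of the 9 had at least 1 read and 6 had a read in at least 5% of nuclei. Meis2 and Ppp1r1b were higher in glutamatergic than in GABAergic nuclei, and Rarb was lower. None of these differences passed the threshold when library set B was left out. Of the 23 GABAergic nuclei with a Rarb read, 19 were Pvalb nuclei. Rgs9 was read in 0 of 137 Pvalb nuclei and in 31 of 104 Sst nuclei. Drd2 was read in 5 nuclei, all of them Sst nuclei, and Adora2a in none.

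The nuclei came from young adult C57Bl/6J mice given 1 adeno-associated virus in the PHP.eB capsid, which crosses into the brain from the blood. In each virus 1 enhancer or promoter controlled the yellow nuclear reporter H2B-SYFP2. All mice had 5e11 vector genomes and 3 to 4 weeks of expression, and each sorted nucleus was made into its own SMART-Seq v4 cDNA and Nextera XT library. There are 20 vector labels: 16 AiE enhancers, and CMV, hSyn1, hI56i and DLX2.0 as general, neuronal and (for the last pair) GABAergic elements. What the sort collected depends on where each element is active. The labels name no animal, so animals may have been pooled and each vector label is treated as 1 sample. The p-values below measure only the spread between vector labels.

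Dopamine acts through D1-type receptors, which raise cyclic AMP, and D2-type receptors, which lower it. In the striatum Drd1 and Drd2 mark separate populations of spiny projection neurons, and the adenosine receptor Adora2a accompanies Drd2. Both routes meet at adenylyl cyclase, mainly the product of Adcy5, and at DARPP-32, the product of Ppp1r1b, which inhibits protein phosphatase 1 once protein kinase A has phosphorylated it. Several of these genes are also used outside the striatum, DARPP-32 for example in deep cortical layers.

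Nuclei with at least 50000 gene reads and 1000 genes were kept, 781 of 797. A nucleus was called glutamatergic when Slc17a7, the vesicular glutamate transporter gene, reached 10 CPM (counts per 1e6 gene reads) and Gad1 plus Gad2, which make GABA, did not, and GABAergic in the opposite case. Within each class a nucleus was assigned to the split gene with the highest CPM, if that reached 10. This gave 385 glutamatergic nuclei (50 Foxp2, 75 Rorb, 75 Cux2 and 185 without a split gene at 10 CPM) and 310 GABAergic nuclei (52 Adarb2, 137 Pvalb, 104 Sst and 17 without). Reads per nucleus ran from 50565 to 666436. Every nucleus is labelled striatum, but 56.7% had a read of Slc17a7, and Isl1, a transcription factor gene of spiny projection neurons, had no read in the 781 nuclei (taking 3 nuclei of the total as the limit that a count of 0 allows, at most 0.384%). Gpr6 had reads in 6 nuclei, Rxrg in 7 and Scn4b in 28. Of the more widely used ones, Penk had reads in 56 nuclei, Pdyn in 47 and Tac1 in 95 (83 GABAergic). Library names fall into 3 sets, A (516 nuclei), B (178) and C (87), which the labels do not explain. Set B holds 60 nuclei with 5000 or more genes, against 1 each in sets A and C. Their median share of mitochondrial reads was 1.66%, against 0.000705% in the other 118 nuclei of set B, and their median depth 433691.5 against 235765 reads.

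Most members were read more often in these gene-rich nuclei. In set B, nuclei of 5000 or more genes and nuclei with fewer differed in the share with a read of Ppp1r1b (43.3% and 5.09%), Rgs9 (38.3% and 10.2%), Adcy5 (31.7% and 8.48%), Gng7 (28.3% and 6.78%), Drd1 (20% and 5.09%), Meis2 (36.7% and 25.4%) and Drd2 (5% and 0 of 118). Rarb went the other way (0 of 60 and 3.39%). The part of these nuclei in each result was not tested as a cause, and shares without them stand beside the shares of the classes below.

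Of the members, Rarb has the longest gene body and Drd1 the shortest, and how the authors counted intronic reads is not given in the sources used here. The mm10 positions in GENCODE M21 are chr13:54051183-54055705 for Drd1 (ENSMUSG00000021478), chr9:49340627-49408177 for Drd2 (ENSMUSG00000032259) and chr10:75316877-75334784 for Adora2a (ENSMUSG00000020178). Those of the signalling genes are chr11:98348404-98357796 for Ppp1r1b (ENSMUSG00000061718), chr11:109225355-109298129 for Rgs9 (ENSMUSG00000020599), chr16:35154877-35305738 for Adcy5 (ENSMUSG00000022840) and chr10:80948624-81014945 for Gng7 (ENSMUSG00000048240). The transcription factor genes lie at chr14:16430839-16819156 (Rarb, ENSMUSG00000017491) and chr2:115863064-116065839 (Meis2, ENSMUSG00000027210). Drd2, Adora2a, Ppp1r1b and Adcy5 lie on the plus strand and the others on the minus strand. The table gives 1 count per gene, so exon, intron and UTR reads cannot be separated. Exons cover 1.36% of the Rarb span and 80.2% of the Drd1 span. Rarb overlaps Top2b, a topoisomerase gene on the opposite strand. Top2b was read in 13 of 32 nuclei with a Rarb read (40.6%) and in 352 of 749 without (47%). These shares were not matched for class or genes per nucleus, and whether Rarb counts hold Top2b reads was not tested. Ppp1r1b overlaps 1700003D09Rik on the opposite strand, which was read in 1 nucleus.

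The promoter of Rarb is shown because it carries the element by which the gene is known to answer its own ligand, retinoic acid. RefSeq promoter windows, each at a RefSeq transcript start (GRCm38.p6), were at hand for 7 of the 9 members. The Rarb window lies inside the GENCODE span of the gene, not at its outer end, and is chr14:16575427-16575726, minus strand, written 5′ to 3′ with the retinoic acid element of the DR5 type and the letters TGACAG, a sequence that Meis proteins are known to bind, in capitals:

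Rarb: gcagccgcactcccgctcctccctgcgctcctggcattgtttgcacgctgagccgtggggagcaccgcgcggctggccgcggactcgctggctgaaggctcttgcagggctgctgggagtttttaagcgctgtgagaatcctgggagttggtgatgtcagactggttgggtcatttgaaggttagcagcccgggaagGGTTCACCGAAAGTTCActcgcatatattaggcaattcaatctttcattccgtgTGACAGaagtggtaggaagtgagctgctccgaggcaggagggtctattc

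The DR5 element was searched on both strands and lies in 32 of 32851 promoters of the same length (0.0974%), and TGACAG in 19.2% of them. Among the members' windows the DR5 element was found in that of Rarb and TGACAG in that of Rarb and in the inner of the 2 Gng7 windows, and neither was found in the windows of the other 5. The motifs did not overlap. These matches describe letters, not binding.

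**Figure D1:**
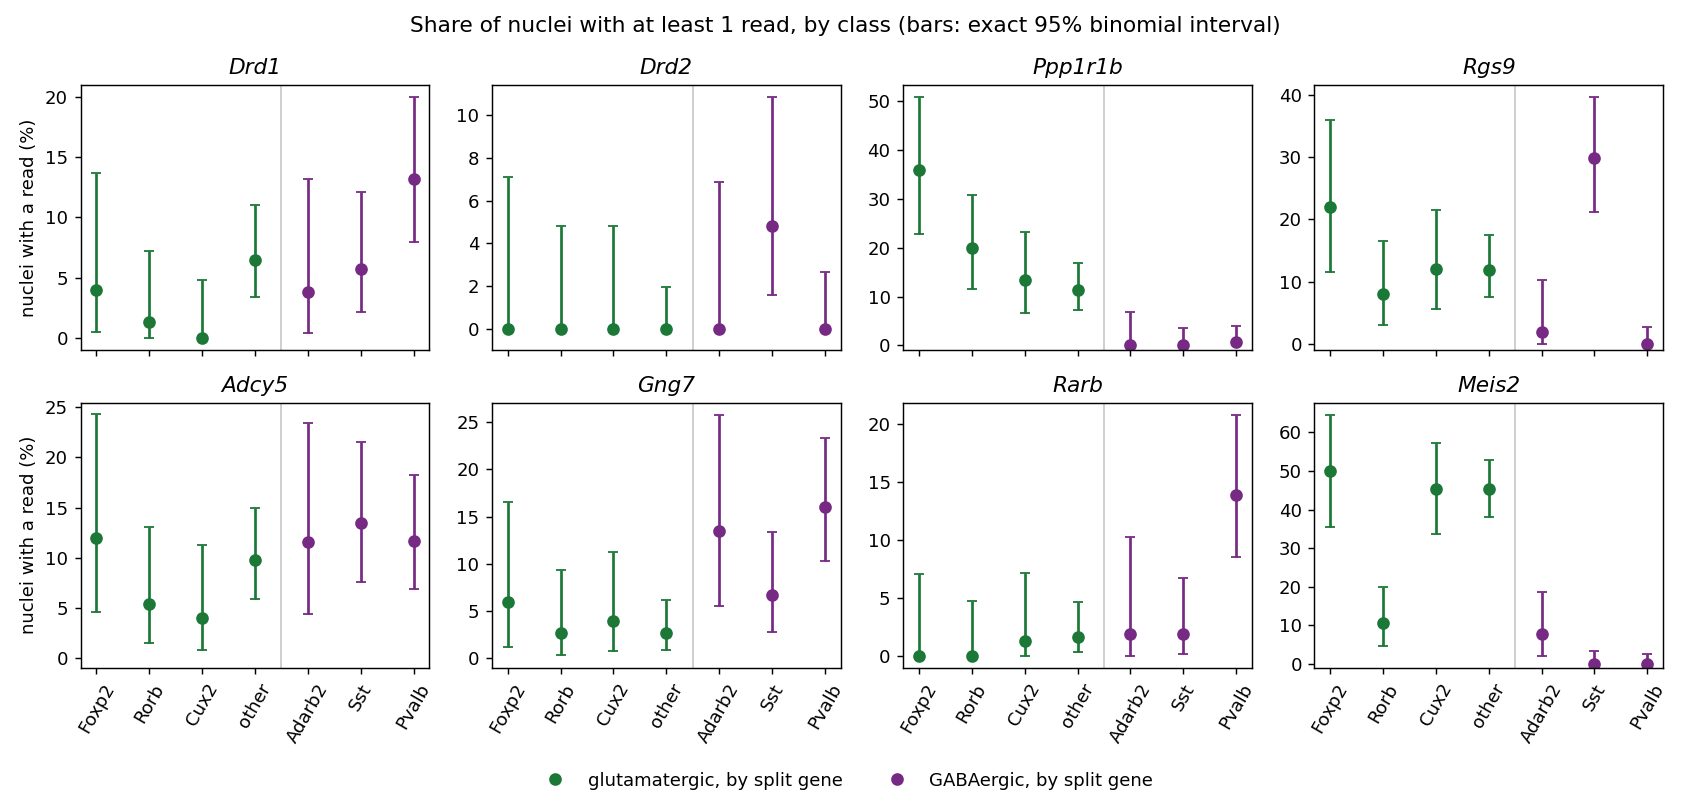
Share of nuclei with at least 1 read of each member (percent) in each class, with exact Clopper-Pearson 95% intervals over nuclei. Meis2 and Ppp1r1b are read mostly in glutamatergic classes and Rgs9 most often in Sst (29.8%) and Foxp2 (22%) nuclei. Drd2 is read in Sst nuclei only and Adora2a (not drawn) nowhere.

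Among the receptors, Adora2a, the adenosine receptor gene of Drd2-bearing spiny neurons, had no read in any nucleus. The limit this count allows is 0.779% of glutamatergic and 0.968% of GABAergic nuclei. Drd2, the D2 receptor gene, was read in 5 of 104 Sst nuclei (4.81%, 95% interval 1.58 to 10.9) and in 0 of 385 glutamatergic, 0 of 52 Adarb2 and 0 of 137 Pvalb nuclei. The 5 nuclei had 124, 64, 63, 8 and 1 reads of Drd2. The first was from hI56i (set C), the next 3 from hSyn1 (set B) and the last from AiE0682h (set A). All 3 hSyn1 nuclei also had Rgs9 reads (18, 46 and 52), and 1 of them 282 reads of Penk. None of the 5 had a read of Gpr6 or Drd1. Without the nuclei of 5000 or more genes, 2 of 89 Sst nuclei had a Drd2 read.

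Drd1, the D1 receptor gene, was read in 47 nuclei, with 1 to 312 reads each and a median of 52. Only 4 of the 47 had 3 reads or fewer. The share was 13.1% in Pvalb nuclei (7.98 to 19.97, 18 of 137), 5.77% in Sst, 3.85% in Adarb2, 4% in Foxp2, 1.33% in Rorb and 6.49% in the glutamatergic nuclei without a split gene. None of the 75 Cux2 nuclei had a read, which allows up to 4%. Without the gene-rich nuclei the Pvalb share was 10.8% (14 of 130). Set A gave 11.8% (12 of 102), set B 27.3% (6 of 22) and set C 0 of 13. Over 11 vector labels with at least 5 Pvalb nuclei, the mean level was 0.84 ± 0.80 log2(CPM+1) (SD, n = 11 labels), with 4 labels at 0. The order of class means was Pvalb, Adarb2, Foxp2, no split gene, Sst, then Cux2 and Rorb at 0, and no neighbours differed by more than the larger of their SDs. Within Pvalb nuclei, Pthlh, a peptide gene of striatal Pvalb interneurons, was read in 55.6% of those with and 25.2% of those without Drd1. In set A these shares were 50% and 24.4%, and without the gene-rich nuclei 50% and 25%.

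In glutamatergic nuclei Drd1 went with markers of cortical layer 6b, a thin sheet of neurons above the white matter. Of 15 glutamatergic nuclei with a Drd1 read, 46.7% had a read of Ccn2, a connective tissue growth factor gene, against 3.24% of the 370 without. For Cplx3, a complexin of the synaptic release machinery, the shares were 40% and 1.62%, for Moxd1 33.3% and 0.811% and for Nxph4 20% and 0.270%. With the gene-rich nuclei left out (9 with and 342 without Drd1) the shares were 44.4% and 3.22% for Ccn2, 33.3% and 1.46% for Cplx3, 44.4% and 0.877% for Moxd1 and 22.2% and 0.292% for Nxph4. Counted another way, a limit set after these values were seen, Drd1 was read in 7 of 9 glutamatergic nuclei with at least 2 of the 4 markers (77.8%, 39.99 to 97.2). It was read in 8 of 376 with 1 or none (2.13%, 0.923 to 4.15). The 9 nuclei came from 7 vector labels, and 6 of these had the Drd1 reads. Set A gave 3 of 5 against 4 of 238, and set B 4 of 4 against 4 of 94. The median depths were 272568 and 279387.5 reads. In GABAergic nuclei the same marker counts gave 1 of 6 and 25 of 304. Of the 7 nuclei, 3 had all 4 markers: those of AiE0401h with 225 and 84 Drd1 reads and that of hSyn1 with 17, which held 6759 genes. AiE0445h_3xC2 gave 1 with 3 markers and 5 Drd1 reads, and AiE0779m 1 with 2 markers and 134 Drd1 reads. The other 2 had 2 markers each and, like the hSyn1 nucleus, were gene-rich: AiE0078h (9 Drd1, 15 Ccn2 and 2 Cplx3 reads, 7330 genes) and AiE0450h (49 Drd1, 1 Ccn2 and 38 Cplx3 reads, 6087 genes). The layer 6b marker list averaged 2.64 log2(CPM+1) in nuclei with and 0.10 in nuclei without Drd1. The list of 12 other spiny projection neuron markers averaged 0.72 and 0.31, and cholinergic markers were at 0 in both. Of the nuclei with Drd1, 6 of 15 were gene-rich, against 28 of 370 without, and their part in the result was not tested.

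Gng7, the G protein gamma subunit that partners Golf in the mouse striatum, was read in 53 nuclei: 36 GABAergic (11.6%, 8.27 to 15.7) and 13 glutamatergic (3.38%, 1.81 to 5.71). Pvalb nuclei had it at 16.1% (10.4 to 23.3) and Adarb2 nuclei at 13.5%, against 6.73% of Sst nuclei and 2.67% to 6% of the glutamatergic classes. Without the gene-rich nuclei the shares were 13.8% in Pvalb, 10.2% in Adarb2, 3.37% in Sst and 1.14% to 2.99% in the glutamatergic classes. The mean level in Pvalb nuclei was 1.01 ± 0.90 (SD, n = 11 labels), in Sst nuclei 0.63 ± 1.01 (n = 10) and in Adarb2 nuclei 0.26 ± 0.41 (n = 5), within the spread. By level, Adarb2 nuclei thus stood below Sst nuclei, the reverse of their shares. Within Pvalb nuclei, Tac1, the substance P precursor gene, was read in 72.7% of those with Gng7 and 40.9% of those without, in set A in 62.5% and 40.7%, and without the gene-rich nuclei in 66.7% and 41.1%.

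Adcy5, the main cyclase of spiny projection neurons, was read in 76 nuclei, with some in every class. In the split classes shares ran from 4% in Cux2 to 13.5% in Sst nuclei, with overlapping intervals, and 3 of the 17 GABAergic nuclei without a split gene had a read. Without the gene-rich nuclei the shares were 1.52% in Cux2, 1.49% in Rorb, 6.98% in Foxp2, 10.1% in Sst and 11.5% in Pvalb nuclei. The class means over labels lay between 0.13 and 0.76 log2(CPM+1), and no neighbours in their order differed beyond the larger SD.

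Rgs9, which speeds the switching off of G protein alpha subunits, differed between the GABAergic classes. It was read in 29.8% of Sst nuclei (21.2 to 39.6, 31 of 104), in 1.92% of Adarb2 nuclei (1 of 52) and in 0 of 137 Pvalb nuclei, a count that allows up to 2.19%. In glutamatergic nuclei it was read in 22% of Foxp2 (11.5 to 35.96), 12% of Cux2, 8% of Rorb and 11.9% of the nuclei without a split gene. The Sst share was 22.7% in set A (15 of 66), 60% in set B (15 of 25) and 7.69% in set C (1 of 13). Without the gene-rich nuclei it was 22.5% (20 of 89), and 18.6% in Foxp2, 10.6% in Cux2 and 5.97% in Rorb nuclei. Over labels the mean level was 2.43 ± 1.91 in Foxp2 nuclei (n = 5) and 2.20 ± 1.27 in Sst nuclei (n = 10). The next class, glutamatergic nuclei without a split gene, had 0.76 ± 0.82 (n = 17), a gap larger than the SDs. Adarb2 and Pvalb nuclei stood at 0 in every label with at least 5 of them. Sst nuclei with Rgs9 had a read of Cnr1, the cannabinoid receptor gene, in 67.7% against 41.1% of those without, of Grik1 in 87.1% against 69.9%, and of Npy in 51.6% against 64.4%. In set A the shares were 60% against 41.2% for Cnr1 and 60% against 56.9% for Npy. Among nuclei under 5000 genes they were 60% against 39.1% for Cnr1, 85% against 68.1% for Grik1 and 60% against 62.3% for Npy. Of the Sst nuclei with Rgs9, 11 of 31 were gene-rich, against 4 of 73 without, and the 12 other spiny projection neuron markers averaged 0.43 against 0.53.

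Ppp1r1b, the DARPP-32 gene, was read in 64 of 385 glutamatergic nuclei (16.6%, 13.04 to 20.7) and in 1 of 310 GABAergic nuclei (0.323%, 0.00817 to 1.78), a Pvalb nucleus with 3 reads. Summed reads were 32.1 CPM in glutamatergic and 0.0302 CPM in GABAergic nuclei, a ratio of 1064 (exact 95% interval 364 to 5164, which covers counting error only). Foxp2 nuclei had the largest share, 36% (22.9 to 50.8), followed by Rorb (20%), Cux2 (13.3%) and nuclei without a split gene (11.4%). Set A gave 36.4% (12 of 33) for Foxp2, 15.4% for Rorb and 6.52% for Cux2 nuclei. The Cux2 share was 41.2% in set B (7 of 17), and 4.55% without the gene-rich nuclei, where the Foxp2 share was 30.2% (13 of 43). Over labels, Foxp2 nuclei had a mean level of 2.36 ± 2.79 (n = 5): AiE0445h_3xC2 had 5.50, AiE0078h 5.25, AiE0140h 1.05, and AiE0391h and AiE0401h were at 0. That spread exceeds the gap to Rorb nuclei (1.53 ± 1.73, n = 7).

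All 4 genes of the layer 6 corticothalamic list were read in a larger share of glutamatergic nuclei with than without Ppp1r1b, as a description with no test. Rprm, a marker of corticothalamic neurons, was read in 29.7% of 64 nuclei with and 6.54% of 321 without Ppp1r1b. Foxp2 was read in 28.1% and 11.2%, Tle4 in 46.9% and 27.1%, and Syt6 in 18.8% and 6.23%. Outside that list, Fezf2, a deep-layer transcription factor, was read in 34.4% and 14.6%. In set A the shares were 23.5% and 4.79% for Rprm, 35.3% and 10.5% for Foxp2, 47.1% and 22.5% for Tle4, 23.5% and 5.74% for Syt6, and 32.4% and 11.5% for Fezf2. Among nuclei under 5000 genes they were 22.5% and 6.11% for Rprm, 32.5% and 10.3% for Foxp2, 45% and 26.05% for Tle4, 20% and 6.43% for Syt6, and 27.5% and 13.5% for Fezf2. Of the nuclei with Ppp1r1b, 24 of 64 were gene-rich, against 10 of 321 without, and median depth was 313293.5 against 273006 reads. The 12 other spiny projection neuron markers averaged 0.48 against 0.21 log2(CPM+1) and 4 oligodendrocyte markers 1.17 against 0.64. The part of these in the result was not tested.

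**Figure D2:**
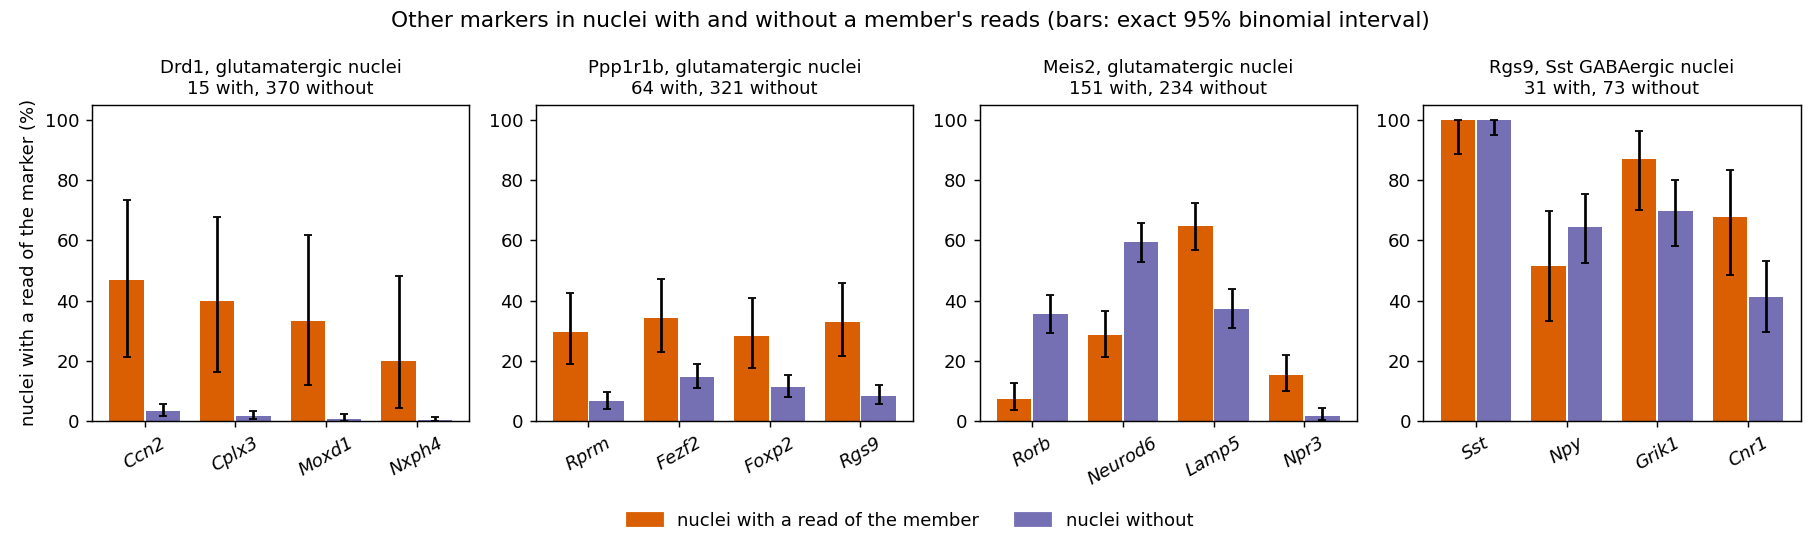
Share of nuclei with a read of each marker (percent, exact 95% intervals over nuclei) in nuclei with and without a read of the member named in the panel. Layer 6b genes stand beside Drd1 (Ccn2 46.7% against 3.24%), Rprm, Fezf2, Foxp2 and Rgs9 beside Ppp1r1b, and Rorb and Neurod6 are less frequent beside Meis2.

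Rarb, the beta retinoic acid receptor gene needed for spiny neuron development in mice, was read in 32 nuclei, with 2 to 138 reads each. Pvalb nuclei held 19 of them, 13.9% of 137 (8.56 to 20.8). All other split classes lay at or under 1.92%, with 0 of 50 Foxp2 and 0 of 75 Rorb nuclei. The Pvalb share was 12.7% in set A, 9.09% in set B and 30.8% in set C (4 of 13). All 32 nuclei had under 5000 genes, and on that limit the Pvalb share was 14.6% (19 of 130). The mean level in Pvalb nuclei was 0.995 ± 0.797 over 11 labels, from 0 in AiE0450h and DLX2.0 to 2.68 in hI56i. The next class, Cux2, had 0.14 ± 0.39 (n = 8), a gap larger than the SDs. Moxd1 was read in 1 of 19 Pvalb nuclei with Rarb (5.26%) and in 34.7% of the 118 without. In set A the shares were 7.69% and 31.5%.

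Meis2, a homeobox transcription factor of developing and adult spiny neurons, was read in 172 nuclei, of which 151 were glutamatergic (39.2%, 34.3 to 44.3). The share was 50% in Foxp2 (35.5 to 64.5), 45.3% in Cux2 (33.8 to 57.3) and 45.4% in glutamatergic nuclei without a split gene, but 10.7% in Rorb nuclei (4.72 to 19.9). In GABAergic nuclei it was read in 4 of 52 Adarb2 nuclei (7.69%, 2.14 to 18.5), in 0 of 137 Pvalb and in 0 of 104 Sst nuclei. In set A the shares were 42.4% in Foxp2, 39.1% in Cux2 and 15.4% in Rorb nuclei, and without the gene-rich nuclei 46.5%, 37.9% and 10.4%. Over labels the level was 3.41 ± 1.75 in Foxp2 (n = 5), 2.85 ± 1.30 without a split gene (n = 17), 2.80 ± 0.95 in Cux2 (n = 8) and 0.79 ± 0.81 in Rorb nuclei (n = 7). Only the step between Cux2 and Rorb exceeded the larger SD.

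Glutamatergic nuclei with Meis2 had Rorb, a layer 4 and 5 gene, in 7.29% against 35.5% of the 234 without, and Neurod6, a cortical transcription factor, in 28.5% against 59.4%. Lamp5, a membrane protein of upper layers, was read in 64.9% against 37.2%, and Npr3, a natriuretic peptide receptor gene, in 15.2% against 1.71%. Set A gave the same directions: Rorb 8.51% against 30.2%, Neurod6 22.3% against 58.4%, Lamp5 60.6% against 41.6% and Npr3 11.7% against 1.34%. Leaving out the gene-rich nuclei, Rorb was read in 7.69% against 34.4%, Neurod6 in 19.2% against 57.01%, Lamp5 in 63.8% against 37.6% and Npr3 in 13.8% against 1.36%. Rorb is also a class gene, so its difference restates the low Meis2 share of Rorb nuclei and is not separate from it. The median depth was 283585 reads in nuclei with and 278158.5 in nuclei without Meis2, and 21 of 151 against 13 of 234 were gene-rich.

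Every vector label had nuclei with Meis2 reads, from 2 of 39 for DLX2.0 to 17 of 40 for AiE0445h_3xC2, and with Rgs9 reads, from 1 of 38 for AiE0387m to 9 of 40 for AiE0078h. AiE0078h also had the most nuclei with Ppp1r1b, 12 of 40, while AiE0390m and hI56i had none. Rarb was read under 12 labels, most often hI56i (6 of 39). Drd1 was read under 17 labels with at most 5 nuclei each, and Gng7 and Adcy5 under 19 each. These counts follow the class make-up of each label as well as the members' levels, so they were compared within classes only. In glutamatergic nuclei the level of Meis2 had a mean of 2.51 ± 0.88 over 18 labels with at least 5 such nuclei, from 1.03 (AiE0475m) to 3.83 (hSyn1), and that of Ppp1r1b 1.24 ± 0.78, from 0 (AiE0390m) to 2.94 (DLX2.0). Each label is 1 sample, so no test was made between them.

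Glutamatergic nuclei were then compared with GABAergic nuclei of the same vector label, with reads summed over at least 5 nuclei of each class in 12 labels. Meis2 had 22.3, 56.1 and 121 CPM in glutamatergic sums (lowest, median, highest) and 0, 0 and 30.8 CPM in GABAergic sums. It was higher in the glutamatergic sum in 12 of 12 labels, and the groups overlapped only through the GABAergic sum of AiE0452h (30.8 CPM). Ppp1r1b had 0, 32.1 and 88.9 CPM in glutamatergic sums and 0, 0 and 0.546 CPM in GABAergic sums. It was higher in 11 of 12 labels and at 0 in both classes of AiE0390m. Rarb had 0, 0 and 9.76 CPM in glutamatergic sums and 0, 10.4 and 56.5 CPM in GABAergic sums, and was lower in 8 labels, equal in 3 and higher in AiE0475m.

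By edgeR's quasi-likelihood test with Benjamini-Hochberg adjustment over 15743 genes, 6.38% of genes passed (3.02% higher and 3.37% lower). Of the 7 members that passed the filter on low counts, 2 were higher and 1 lower. The log2 fold change was 9.73 for Meis2 (SE 1.41, adjusted p = 2.03e-05), 9.67 for Ppp1r1b (SE 1.36, adjusted p = 1.58e-05) and -7.45 for Rarb (SE 1.94, adjusted p = 0.0174). Fitted folds of this size rest on sums at or near 0 in 1 class and depend on the prior count. Ppp1r1b was at 0 in 11 and Meis2 in 10 of 12 GABAergic sums, and Rarb in 11 of 12 glutamatergic sums. These 3 members thus passed the filter on low counts mainly through the class in which they were higher. Not past the threshold were Gng7 (-7.09, SE 2.21, adjusted p = 0.0509), Drd1 (-6.08, SE 2.06, adjusted p = 0.0823), Rgs9 (0.86, SE 2.25, adjusted p = 0.890) and Adcy5 (-0.53, SE 1.46, adjusted p = 0.900). Gng7 and Drd1 were each lower in 9 of 12 labels. Drd2 and Adora2a did not pass the filter. DESeq2, with 22.1% of its 13167 tested genes called (8.69% higher and 13.4% lower), called the same 3 members and also Drd1 and Gng7 as lower.

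The calls depended on which library sets were included. Without the nuclei of 5000 or more genes, Meis2 (9.5, adjusted p = 0.00136), Ppp1r1b (9.17, adjusted p = 0.00840) and Rarb (-7.79, adjusted p = 0.0261) were still called, and Drd1 (-8.31, adjusted p = 0.0317) joined them. Without set B, 7 labels were left and no member was called: Meis2 was at 7.94 (adjusted p = 0.170), Ppp1r1b at 9.69 (adjusted p = 0.0629) and Rarb at -6.16 (adjusted p = 0.465). In set A alone 4 labels had both classes and none of the 3 was called (adjusted p = 0.770, 0.433 and 0.891). With every label of set A that had either class and no label block, an alternative added after the data were seen, Ppp1r1b was called (10.55, adjusted p = 8.63e-06) and Meis2 was not (3.37, adjusted p = 0.0973). In set B alone treated that way, Meis2 was called (11.21, adjusted p = 3.52e-05). Leaving out 1 label at a time kept Meis2 and Ppp1r1b past the threshold (adjusted p at most 0.000823). Rarb missed it without AiE0447h (adjusted p = 0.0531).

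**Figure D3:**
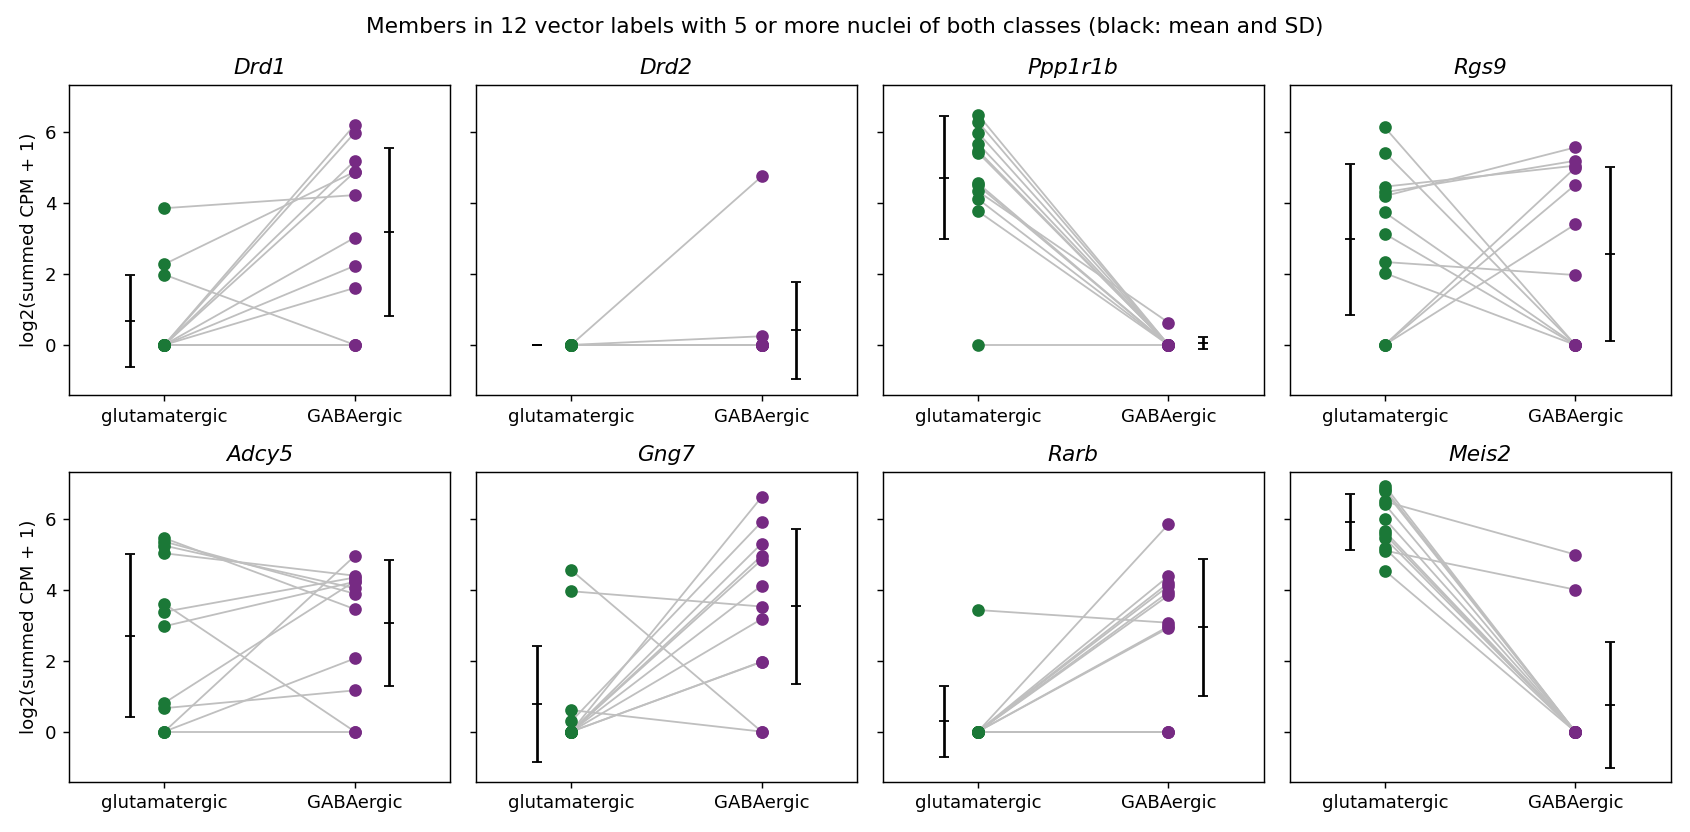
Level of the members in glutamatergic and GABAergic nuclei, log2(summed CPM + 1), with 1 point per vector label, lines joining the classes of 1 label (12 labels) and black bars for mean and SD. Meis2 is higher in glutamatergic sums in 12 of 12 labels and Ppp1r1b in 11, and Rarb is at 0 in 11 of 12 glutamatergic sums.

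Within the glutamatergic class, Foxp2 nuclei were set against the mean of Cux2 and Rorb nuclei (or the 1 of these that a label had) in 9 labels with at least 3 nuclei per sum. Ppp1r1b had 0, 115 and 321 CPM in Foxp2 sums and 0, 21.2 and 84.6 CPM in the others. It was higher in 5 labels, lower in 3 and equal in 1, and the groups overlapped. Rgs9 had 0, 23.5 and 157 CPM in Foxp2 sums and 0, 0 and 22.6 CPM in the others, and Meis2 16.7, 63.4 and 427 CPM and 17.9, 35.8 and 88.7 CPM. Of 12755 genes 1.36% were called (0.517% higher and 0.847% lower), and of the 5 members that passed the filter none was. An unadjusted p under 0.05 was reached by 0 of the 5, and DESeq2, with 9.81% of genes called (2.59% higher and 7.22% lower), called 0 members. The log2 fold changes were 3.05 for Ppp1r1b (SE 1.97, adjusted p = 0.722), 3.81 for Rgs9 (SE 2.33, adjusted p = 0.683), 1.64 for Meis2 (SE 1.19, adjusted p = 0.768), 1.56 for Adcy5 (SE 2.29) and -1.09 for Gng7 (SE 1.84) by the quasi-likelihood test. The larger Ppp1r1b share of Foxp2 nuclei is therefore a description, and the SEs leave room for differences in either direction.

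Within the GABAergic class, Adarb2 nuclei were set against Pvalb and Sst nuclei in the same way in 8 labels. Meis2 had 198, 62.1 and 28.9 CPM in the Adarb2 sums of AiE0452h, CMV and hI56i and 0 in those of the other 5 labels, against 0 in all Pvalb and Sst sums. Of 13755 genes 2.38% were called (0.822% higher), and of the 6 members past the filter Meis2 was (edgeR's quasi-likelihood test, adjusted p = 0.0495). With 0 in every Pvalb and Sst sum, Meis2 passed the filter on low counts through Adarb2 sums alone, so this call is not separate support. Meis2 had 416 reads in all Adarb2 nuclei, from 4 nuclei of which 1 held 223 reads and 1 a single read. The call was lost when any 1 label was left out (adjusted p = 0.0578 to 0.410), without the gene-rich nuclei (0.0697) and by DESeq2 (0.136), which called 16.6% of genes (3.59% higher) and 0 members. Drd1, Adcy5, Gng7 and Rarb did not pass (adjusted p = 0.840 to 0.897), and the fit of Rgs9, at 0 in every Adarb2 sum, did not converge.

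A comparison of Pvalb with Sst nuclei in 13 labels was added after the shares had been seen. It uses the same nuclei, so its p-values are not separate support for those shares. Rgs9 was at 0 in all 13 Pvalb sums and had 0, 22.5 and 133 CPM in Sst sums, so it passed the filter on low counts through Sst sums alone. The Sst sum was the higher in 9 labels and both were at 0 in AiE0475m, AiE0682h, AiE0743m_3xC2 and CMV. Of 14217 genes 2.05% were called (1.16% higher and 0.893% lower in Pvalb nuclei), and of 6 members past the filter Rgs9 was called as lower (edgeR's quasi-likelihood test, adjusted p = 0.00372). Summed over all nuclei, Rgs9 had 48.6 CPM in Sst and 0 in Pvalb nuclei. A floor of 3 reads over the Pvalb nuclei would put this at 713-fold, which covers counting error only. Sst nuclei with Rgs9 held a median of 37 reads each, so 1 Pvalb nucleus with reads could exceed that floor and no lower bound is drawn. The call held without each label (adjusted p = 0.00319 to 0.0131), without the gene-rich nuclei (0.0178) and without set B (0.0253), but not in set A alone (0.0575, 11 labels).

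Rarb went the other way in the same comparison, with 0, 15.5 and 59.7 CPM in Pvalb sums and 0, 0 and 12.2 CPM in Sst sums. It was higher in Pvalb nuclei in 9 labels and equal in 4, with a log2 fold change of 6.52 (SE 1.92, adjusted p = 0.0615 by the quasi-likelihood test and 0.0269 by DESeq2). Gng7 had 0, 15.02 and 157 CPM in Pvalb sums and 0, 0 and 32.03 CPM in Sst sums (4.80, SE 2.36, adjusted p = 0.445, and 0.000135 by DESeq2). Drd1 (2.32, SE 1.71, adjusted p = 0.668) and Adcy5 (1.81, SE 1.95, adjusted p = 0.794) did not pass by edgeR. DESeq2, with 13.7% of genes called (10.3% higher and 3.43% lower in Pvalb nuclei), called 3 members: Rgs9 as lower (adjusted p = 0.0434) and Rarb and Gng7 as higher. Drd2 was at 0 in all Pvalb sums and in 10 of 13 Sst sums, with 35.8 CPM for hSyn1, 35.1 for hI56i and 0.438 for AiE0682h (adjusted p = 0.577).

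**Figure D4:**
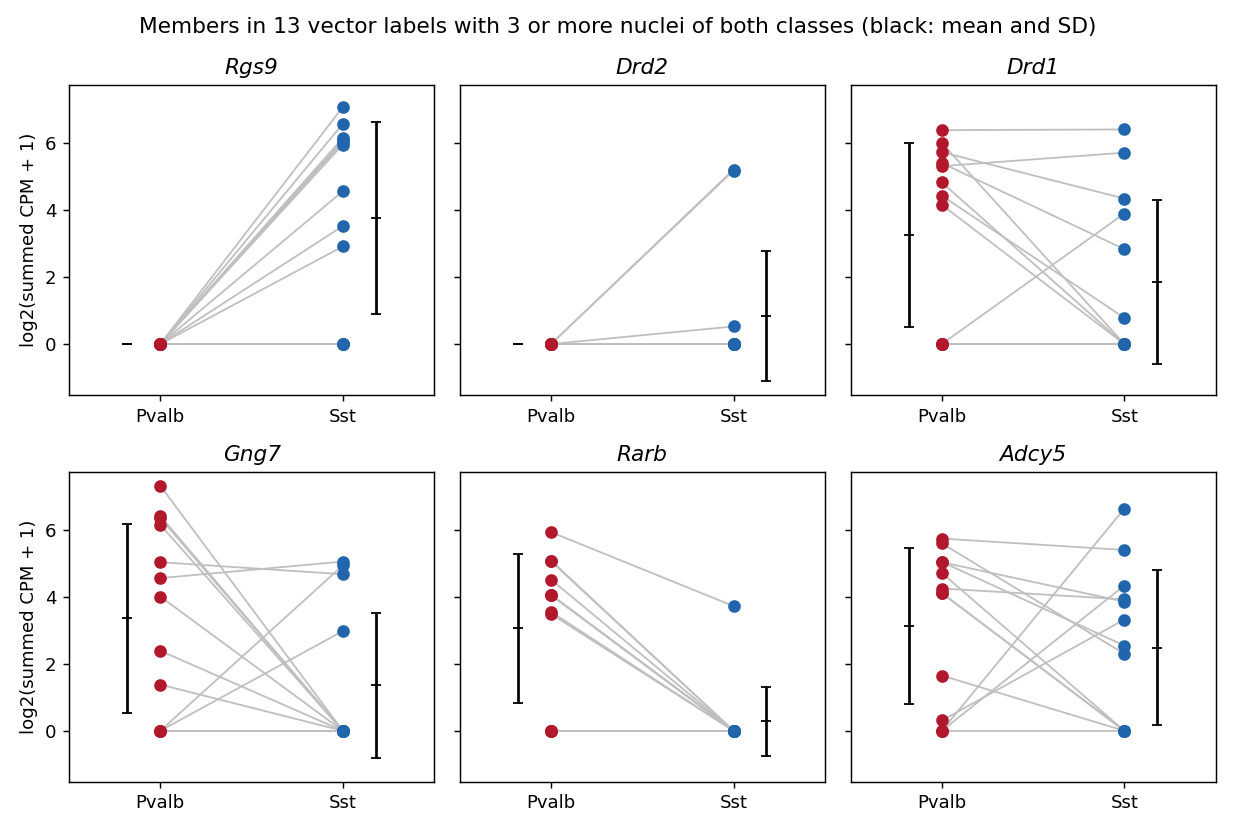
Level of 6 members in Pvalb and Sst nuclei, log2(summed CPM + 1), with 1 point per vector label, lines joining the classes of 1 label (13 labels) and black bars for mean and SD. Rgs9 is at 0 in 13 of 13 Pvalb sums and above 0 in 9 Sst sums, and Rarb is above 0 in 9 Pvalb sums and in 1 Sst sum.

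Each member was read in at most 22% of nuclei, and the numbers read together were not compared with what such shares alone would give. Of the 781 nuclei, 392 had no member, 274 had 1, 79 had 2, 27 had 3, 7 had 4 and 2 had 5. The 2 nuclei with 5 members were both glutamatergic, from set B, and held 6739 genes (AiE0078h) and 8725 genes (hSyn1). No nucleus had both Drd1 and Drd2. With Drd2 in 5 nuclei and Drd1 in 6.02% of all nuclei, that count cannot show whether the 2 genes are kept apart. Of 47 nuclei with Drd1, 8 had Ppp1r1b. Within glutamatergic nuclei Rgs9 was read in 32.8% of those with Ppp1r1b and 8.41% of those without (21 nuclei had both). In set A the shares were 23.5% and 9.09%, and without the gene-rich nuclei 27.5% and 8.36%. Meis2 was read in 51.6% of glutamatergic nuclei with and 36.8% without Ppp1r1b, in 41.2% and 38.3% in set A, and in 42.5% and 36.3% without the gene-rich nuclei. Drd1 and Ppp1r1b shared 5 glutamatergic nuclei (33.3% of those with and 15.9% of those without Drd1), but 1 in set A (14.3% and 13.98%). Without the gene-rich nuclei the shares were 11.1% and 11.4%. In Pvalb nuclei Gng7 was read in 33.3% of 18 nuclei with and 13.4% without Drd1, in set A in 16.7% and 15.6%, and without the gene-rich nuclei in 21.4% and 12.9%. Adcy5 and Gng7, whose products act in sequence below the D1 receptor, shared 15 nuclei: Gng7 was read in 19.7% of nuclei with and 5.39% without Adcy5, in set A in 12.5% and 4.41%, and without the gene-rich nuclei in 12.3% and 4.38%. In all, 115 nuclei had at least 2 members, and 75 without the gene-rich nuclei.

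Of 59 other genes of the pathway, fixed as 7 lists, 53 were tested between glutamatergic and GABAergic nuclei. Of these, 5 were higher and none was lower, beside 3.02% higher and 3.37% lower of all genes tested, with a median log2 fold change of 0.05 against -0.37 over all genes tested. Those called were the adenosine A1 receptor gene Adora1 (3.67, SE 0.81, adjusted p = 0.00357), the RGS genes Rgs14 (7.72), Rgs4 (3.35) and Rgs11 (1.33), and the calcineurin subunit gene Ppp3ca (1.53), all by edgeR's quasi-likelihood test. None of the 12 G protein genes, 7 cyclase genes, 7 tested retinoid genes and 6 tested homeobox genes related to Meis2 passed. In Foxp2 nuclei 1 of 49 tested pathway genes passed (1.36% of all genes did), Rgs4, which was lower (-2.17). In Adarb2 nuclei 2 of 51 passed (2.38% of all genes): Prkacb, a protein kinase A subunit gene, was lower (-3.06) and Rgs8 higher (7.56). In Pvalb against Sst nuclei 3 of 49 passed (2.05% of all genes): Adcy2 (-6.09) and Rgs11 (-3.01) were lower and Rgs2 (6.68) higher. Of the other dopamine receptor genes, Drd3 had a read in 0 of 781 nuclei, Drd4 in 8 (1.02%) and Drd5 in 4 (0.512%). Gnal, which encodes the alpha subunit of Golf, was read in 20.4% of nuclei.

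The genes whose pattern was most like that of a member were named over 63 units of vector label and class with at least 5 nuclei, among 11218 genes read in at least 5% of nuclei. These units share libraries and depth, so the values describe likeness only. For Meis2 they were Baiap2 (Pearson r = 0.73), Slc17a7 (0.73) and Gm26871 (0.73), and for Ppp1r1b Ier5 (0.69), Hs3st4 (0.67) and Rprm (0.67). Slc17a7 was used to define the broad classes that these units follow, so its likeness to Meis2 repeats the difference between those classes. Rgs9 was most like Paqr8 (0.63), the kainate receptor gene Grik3 (0.54) and Gm28175 (0.53), and Gng7 most like Fam210b (0.68), Gm13205 (0.61) and Id4 (0.61). Drd1 was most like Arhgef6 (0.60), Hells (0.58) and Trpm2 (0.56), and Adcy5 most like Adck1, Cpsf3 and Vps53 (0.53 to 0.54). Drd2, Adora2a and Rarb were read in under 5% of nuclei and were not given a partner.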

How the data were processed

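The authors deposited 1 table of raw read counts per gene for single nuclei, aligned with STAR 2.7.2a to mm10 per the submitters' processing notes. The counter, annotation, strand setting and treatment of introns are not stated in the sources used here. SMART-Seq v4 has no molecular identifiers, so PCR copies are counted and all intervals (exact Clopper-Pearson, 95%) and floors (3 reads) cover counting error only. Where a count is 0, the limit printed in the text is 3 nuclei of the total, while the plot of shares by class draws the exact interval. Of 2501 columns, 1704 belong to none of the samples used here and were not used. Rows without a symbol held 0.0931% of reads. No 2 nuclei had identical counts.

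The members and lists were chosen with earlier results of these data known. The comparison of Pvalb with Sst nuclei, the count of 2 layer 6b markers and the limit of 5000 genes were chosen after values were seen. Shares were recomputed with each nucleus of at least 100000 reads thinned to 100000 reads. Thinned shares were 10.95% for Drd1 in Pvalb and 27.9% for Rgs9 in Sst nuclei. For Ppp1r1b they were 36% in Foxp2 and 9.33% in Cux2 nuclei. Counts were summed per vector label and class (at least 5 nuclei, or 3 within split classes). They were tested with edgeR 4.0.16 (R 4.3.3; TMM, filterByExpr, quasi-likelihood F test, vector label as block, Benjamini-Hochberg threshold 0.05), after a test of the scripts on simulated data. Between glutamatergic and GABAergic nuclei, that test called 0 of 50 genes changed 2-fold and 24 of 50 changed 16-fold. At 16-fold it called 10 of 50 for Foxp2 nuclei, 9 of 50 for Adarb2 nuclei and 21 of 50 for Pvalb against Sst nuclei. A member that was not called may therefore still differ. Alternatives were DESeq2 1.42.0, other filters, scalings, class limits, nuclei and library sets, and leaving out each vector label. Levels are means of log2(CPM+1) over the nuclei of a label. Everything else was computed with Python 3.11.15, numpy 2.4.6, pandas 2.3.3 and scipy 1.17.1. Named are the 9 members, the class genes, up to 3 called genes of each pathway list with the largest fold change, and 3 genes most like each member read in at least 5% of nuclei. Marker genes and single nuclei named beside a member were picked after their values were seen.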

Additional observations from a re-analysis of the deposited data

Results flagged for a closer look

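Within a class, the level of a member in 1 vector label stood far from the other labels in 9 of 27 groups of 4 to 10 labels. Chance flags about 1 in 20 groups, and in 6 of the 9 all other labels were at 0, so that any label with a read would stand apart. In Foxp2 nuclei, AiE0391h had a Meis2 level of 6.52 (4 of 5 nuclei with a read), with the next label at 2.80, and AiE0078h an Rgs9 level of 5.82 (4 of 5 nuclei), with the next at 1.84. AiE0401h had Drd1 at 1.74 and Gng7 at 1.74 in Foxp2 nuclei, each from 1 of 5 nuclei, with the other labels at 0. In Rorb nuclei AiE0140h had Adcy5 at 0.906 and Gng7 at 1.17, each from 1 of 8 nuclei. In Cux2 nuclei AiE0445h_3xC2 had Gng7 at 1.26 (2 of 10 nuclei, next label 0.343) and AiE0475m had Rarb at 1.09 (1 of 7). In Sst nuclei hI56i had Rarb at 0.681 (1 of 10). All values are means of log2(CPM+1).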

How the results depend on the processing

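No result changed sign while called. Between glutamatergic and GABAergic nuclei, 1005 genes and 3 members were called. DESeq2 called 2913 genes (1144 higher, 1769 lower) and 5 members, sums of at least 10 nuclei 535 genes, set A alone 108 genes and 0 members, and the data without set B 366 genes and 0 members. Without the vector label block 1 member was called. With labels of either class and no block, 1 member was called in set A, and 1 member and 223 genes in set B. Leaving out each label gave 813 to 957 genes and 2 to 5 members. Without hSyn1, Drd1 (adjusted p = 0.0265, edgeR) and Gng7 (0.0145) were also called. Gng7 was called as well without AiE0410m (0.0275) or AiE0682h (0.0170).

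For Foxp2 nuclei 174 genes were called, but 1308 by DESeq2, 96 with nuclei of 1 split gene only, 42 in set A, 44 without set B, 89 without the nuclei of 5000 or more genes and 113 to 147 without 1 label (113 without AiE0445h_3xC2). Members called were 0 to 0 over the labels left out. For Adarb2 nuclei 327 genes were called, but 2413 by DESeq2, 130 in set A, 145 without set B and 152 to 256 without 1 label (152 without AiE0447h, 203 without hI56i, 215 without AiE0390m, 216 without AiE0452h). The 1 member called became 0 without a filter on low counts, by DESeq2, with nuclei of 1 split gene only, in set A, without set B, without the nuclei of 5000 or more genes and without any 1 label. For Pvalb against Sst nuclei 292 genes and 1 member were called, but 1749 genes and 3 members by DESeq2, 166 genes and 0 members in set A, and 191 genes without set B. The labels left out gave 228 to 283 genes. Nuclei with at least 2 members numbered 115, and 75 without the nuclei of 5000 or more genes. The causes of these differences were not tested, except that smaller sets hold fewer labels and nuclei. No paired analysis was possible because of what the replicate numbers are: they only count the nuclei of 1 vector label, so none was made by replicate number. Classes were instead paired within the vector label, which was the block in the fits reported.

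A share of 0 limits nuclei with a read, not nuclei expressing the gene.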

Other observations

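The nuclei outside both broad classes entered no comparison. Of the 50 nuclei with Slc17a7 and Gad1 plus Gad2 both at 10 CPM or more, 24% had a read of Meis2, 18% of Ppp1r1b, 10% of Drd1, 10% of Rgs9, 8% of Adcy5 and 6% each of Gng7 and Rarb. Of the 36 nuclei with neither, 13.9% had a read of Meis2, 11.1% of Rgs9, 8.33% of Ppp1r1b, 5.56% each of Adcy5 and Rarb, and 2.78% each of Drd1 and Gng7. Aqp4, an astrocyte gene, was read in 8 of these 36 (22.2%) and in 0 of the 50. Doublets were not called, so whether the 50 are pairs of nuclei was not tested.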
